A study of Mus musculus with 8 samples.

Results

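The genes described here encode subunits of the mitochondrial respiratory chain and of ATP synthase, together with a few factors that carry the same name stems. Members were all non-control probes whose gene name on the array began with Nduf, Uqcr, Cox4 to Cox8 or Atp5, or was Sdha, Sdhb, Sdhc or Sdhd. This gave 90 gene names and 131 probes, of 30210 gene names and 39429 probes on the array. By textbook knowledge and their names 38 of the genes belong to complex I, 4 to complex II, 8 to complex III, 17 to complex IV and 15 to complex V. Another 7 encode assembly or associated factors. The last, Cox4nb, only shares the name stem: its RefSeq symbol is Emc8, and it encodes a part of the endoplasmic reticulum membrane protein complex.

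Brains came from mice deprived of food for 17 h (fasted) and from fed mice, and each of 4 fasted and 4 fed samples was hybridised to its own single-colour Agilent array. Strain, sex, age and the number of mice behind a sample are not given in the sources used here, so a p-value refers only to the spread among the 8 samples, part of which may be technical. Values given below for fasted brains and fed brains are values of these samples. On each of 2 slides, fasted samples occupied positions 1 and 3 and fed samples positions 2 and 4. Feeding state and position therefore cannot be told apart. Whole brain was measured, and in such bulk samples fewer cells of a type and less RNA per cell cannot be told apart.

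Oxidative phosphorylation takes electrons from NADH at complex I and from succinate at complex II, passes them over ubiquinone to complex III and over cytochrome c to complex IV, where oxygen is reduced. Protons pumped on the way drive ATP synthase, also called complex V. The brain depends on this route for most of its ATP, and during a fast its fuel shifts partly from glucose to ketone bodies, which enter the same chain. Most subunits are encoded in the nucleus, the remainder in mitochondrial DNA, and several subunits of complex IV exist as a general form and as a form typical of heart, skeletal muscle, testis or hypoxic cells.

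Each signal was taken to log2 and the array's 75th percentile was subtracted; this is called the scaled log2 signal, and a difference is the fasted mean minus the fed mean on that scale. Probes were kept when they were well above background on at least 4 of the 8 arrays. On each array 62.3% to 69.0% of probes were this far over background, and no spot was saturated. Of the members, 130 probes and 89 genes were kept. Cox8c, a testis form of a complex IV subunit, reached that signal on 0 arrays and was not tested. Where a gene had several kept probes, the brightest over all 8 arrays stood for it. Defining transcripts of the tissue were present: all 8 neuronal markers looked at were kept, with summed signals of 186 times the array's 75th percentile or more. Of markers of other organs, 3 of 5 of skeletal muscle, 3 of 3 of heart and 2 of 3 of liver were also kept, but their summed signals lay below the 75th percentile on every array. The liver sum was uneven, from 0.08 to 0.96 times that percentile in fasted brains and from 0.11 to 0.22 times in fed brains. The median difference of the 2 liver genes was 0.93, and 0.32 without fasted replicate 3. The source of this signal was not tested.

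Differences between fasted and fed brain were small in this gene group. By limma with Benjamini-Hochberg adjustment over 26066 kept probes and a threshold of 0.05, 3 of the 89 genes were higher in fasted brain and 5 were lower, in all 8.99% of them. Of all 19995 genes tested, transcripts without a gene name included, 17.2% passed, with 8.49% higher and 8.7% lower. Among the 2493 genes at least as bright as the dimmest 25% of the members, a comparison chosen after the data were seen, 10.6% passed. The 8 genes differed by only 1.08-fold to 1.17-fold. They were Ndufb5 of complex I, Uqcrc2 of complex III and Atp5a1 of complex V, which rose, and Ndufa4l2, Cox6b2, Cox7a1, Atp5d and Ndufaf2, which fell.

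Apart from Ndufaf2 and Ndufa4l2 (limma adjusted p = 0.00998 and 0.0139), these calls lay close to the threshold. All 8 passed with the slide as a block, and all 8 kept their direction within each slide. With the replicate number as a block, limma still called 2 of the 8, Ndufa4l2 and Ndufaf2. With each array centred on its median in place of its 75th percentile, it called 0 higher and 1 lower, Ndufaf2. At an unadjusted p under 0.05 there were 20 members higher (22.5%) and 7 lower (7.87%), against 15.8% and 17.0% of all genes and 13.8% and 9.43% of the equally bright genes. The 4 fasted values lay wholly above the 4 fed values for 18 members (20.2%) and wholly below them for 7 (7.87%), against 12.6% and 12.5% of all genes. Among the equally bright genes those shares were 12.7% and 8.5%.

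The small number of calls went together with precise estimates. The median standard error of a member's difference was 0.04, as among the equally bright genes (0.04), against 0.05 over all genes. The 95% confidence interval lay wholly inside a change of 1.2-fold in either direction for 82 of the 89 members (92.1%), against 87.2% of the equally bright genes and 55.6% of all genes. Only Cox7b2, a testis form of a complex IV subunit that was well above background on 1 fasted and 3 fed arrays, had an estimated difference over 1.2-fold, and its interval was wide (log2 -0.35, 95% interval -0.89 to 0.19, limma adjusted p = 0.346). The median difference over the members was 0.02 on the log2 scale, with 55 genes above 0 and 34 below, against -0.01 over all genes. Over all genes 9122 lay above 0 and 10873 below, and among the equally bright genes 1255 and 1238. The median size of a difference was 0.05 (1.04-fold), against 0.05 (1.04-fold) among the equally bright genes and 0.10 (1.07-fold) over all genes.

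**Figure D1:**
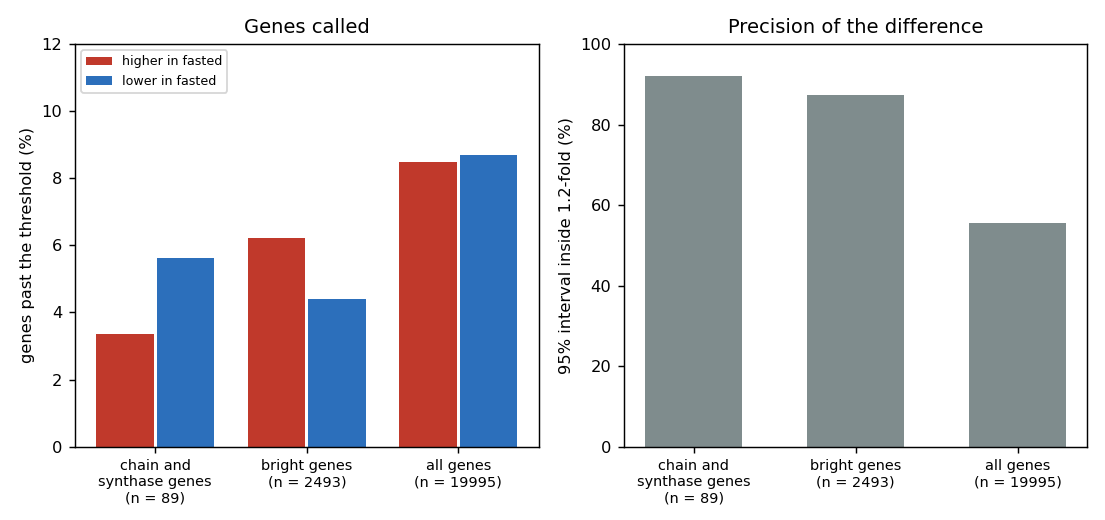
Left, the percentage of genes past the threshold (limma adjusted p under 0.05) that were higher (red) and lower (blue) in fasted brain, for the 89 chain and synthase genes, the 2493 equally bright genes and all 19995 genes. Right, the percentage of genes in the same groups whose 95% confidence interval lay inside 1.2-fold, which was 92.1% for the chain and synthase genes and 55.6% for all genes.

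The complexes differed little among themselves. The median difference was 0.03 for complex I, 0.09 for complex II, 0.06 for complex III, -0.05 for complex IV and 0.02 for complex V. Within slide 1 and within slide 2 these medians were 0.02 and 0.04 for complex I, 0.10 and 0.09 for complex II, and 0.05 and 0.04 for complex III. For complex IV they were -0.05 and -0.03, and for complex V 0.01 and 0.02. Complex IV was the one of the 5 with a median below 0, as it also was with median scaling (-0.04), quantile normalization (-0.04) and normexp background correction (-0.04). Without fasted replicate 2 the median of complex V was also below 0 (-0.00124), and that of complex I was 0.0165 without fed replicate 4. Ndufa4 and Ndufa4l2, listed here under complex I by their names, are now counted in or beside complex IV. With both moved there, the medians were again 0.03 for complex I and -0.05 for complex IV, and the calls were 1 higher and 0 lower in complex I and 0 higher and 3 lower in complex IV. All these values are descriptions of the genes on these arrays and carry no test between complexes.

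**Figure D2:**
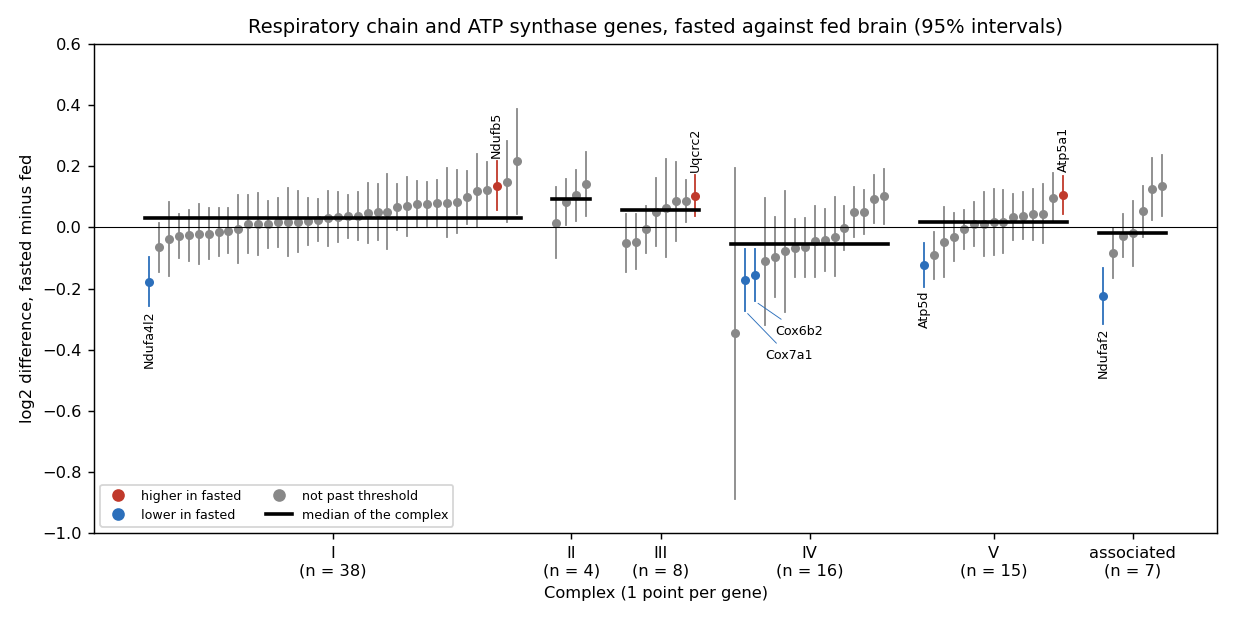
Difference between fasted and fed brain (log2, vertical axis) for 88 genes sorted within complexes I to V and the associated factors, 1 point per gene with its 95% interval; black lines are medians. The 8 coloured and named genes passed the threshold, and all other points lie nearer to 0 than Cox7b2 at -0.35.

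Complex I, the NADH dehydrogenase, had 28 of 38 genes above 0. The 7 core genes, homologous to the bacterial enzyme, had a median of 0.04 and the 31 accessory genes a median of 0.03. Ndufb5, an accessory subunit of the membrane arm, was higher in fasted brain. Its scaled log2 signal was 3.74, 3.69, 3.81 and 3.72 in fasted brains, against 3.58, 3.61, 3.59 and 3.63 in fed brains. The groups did not overlap, the lowest fasted value being 3.69 and the highest fed value 3.63. The difference was 0.14 ± 0.03 (SE, 4 arrays per group, 0.12 and 0.15 within slides 1 and 2), and limma gave an adjusted p of 0.0335, or 0.0744 with the replicate block. The probe (NM_025316) is placed by the array design on chromosome 3, bases 32650097 to 32650156 (build mm9). A second Ndufb5 probe, 139 bases away, gave 0.05 (adjusted p = 0.366). Ndufs5, an accessory subunit, had 0.12 (adjusted p = 0.0729).

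Ndufa4l2 fell. It encodes a protein induced by hypoxia-inducible factor that resembles Ndufa4, a subunit first assigned to complex I and now counted in complex IV, and in mouse brain its transcript is known from pericytes. Its scaled log2 signal was -1.30, -1.32, -1.36 and -1.25 in fasted brains, against -1.14, -1.16, -1.09 and -1.14 in fed brains. All fasted values lay below all fed values. The difference was -0.18 ± 0.03 (SE, 4 arrays per group, -0.16 and -0.19 within the slides), or 1.13-fold, and limma gave an adjusted p of 0.0139, and 0.0435 with the replicate block. It passed in 16 of 17 alternative settings, the exception being median scaling (adjusted p = 0.0523). The probe (NM_001098789) is on chromosome 10, bases 126954149 to 126954208 (mm9).

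Because Ndufa4l2 is a pericyte transcript, 9 markers of mural cells (pericytes and vascular smooth muscle) were set beside it in a list drawn up after the data were seen. Of these, 2 were higher, Pdgfrb (0.18) and Abcc9 (0.26), and 3 were lower, Higd1b (-0.28), Acta2 (-0.25) and Vtn (-0.15). With the replicate block Pdgfrb (adjusted p = 0.0823) and Vtn (adjusted p = 0.0968) no longer passed. Rgs5, a defining pericyte transcript, had -0.18 (adjusted p = 0.0829). The summed signal of the 9 genes, in multiples of the array's 75th percentile, ranged from 7.82 to 8.28 in fasted brains and from 8.60 to 8.79 in fed brains. The part of these cells in the Ndufa4l2 result was not tested.

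Ndufv3, an accessory subunit next to the NADH-binding flavoprotein, is transcribed in a short form and in a long form with an added exon. The difference at its brightest probe was near 0 (0.01, 95% interval -0.08 to 0.10, adjusted p = 0.894). A dimmer probe, which the array design places 3061 bases upstream on the same strand at chr17:31665148-31665207 (mm9, plus strand), rose. Its 60 bases are shown because they were the only member probe past the threshold that did not belong to the 8 genes above.
Ndufv3 upstream probe: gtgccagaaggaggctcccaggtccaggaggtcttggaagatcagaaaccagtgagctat
This probe had -1.44, -1.36, -1.30 and -1.31 in fasted brains, against -1.69, -1.60, -1.72 and -1.65 in fed brains, with no overlap. The difference was 0.31 ± 0.04 (SE, 4 arrays per group, 0.24 and 0.38 within the slides), with a limma adjusted p of 0.00451 (0.0207 with the replicate block). It passed in 16 of 17 alternative settings. Another probe, 4451 bases upstream, gave -0.06 (adjusted p = 0.755). The exon under each probe was not analysed here. At the level of probes, 9 of 130 members passed (6.92%), against 16.9% of all kept probes.

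Complex II, succinate dehydrogenase, is also an enzyme of the tricarboxylic acid cycle and is the one complex encoded wholly in the nucleus. None of its 4 genes passed, while all 4 lay above 0. Sdha, the flavoprotein that oxidises succinate, had 3.67, 3.60, 3.64 and 3.56 in fasted brains, against 3.48, 3.55, 3.50 and 3.51 in fed brains. Sdhb, the iron-sulfur subunit, had 4.83, 4.84, 4.91 and 4.81 in fasted brains, against 4.77, 4.74, 4.79 and 4.76 in fed brains. In both genes every fasted value was above every fed value. The differences were 0.10 for Sdha (limma adjusted p = 0.0828) and 0.08 for Sdhb (adjusted p = 0.117), with 95% intervals of 0.02 to 0.19 and 0.01 to 0.16.

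The membrane anchors were less uniform. Sdhc had 2.41, 2.43, 2.50 and 2.42 in fasted brains, against 2.27, 2.23, 2.29 and 2.40 in fed brains, again without overlap. Its difference of 0.14 did not pass without a block (adjusted p = 0.0659) but did with the slide as a block (0.0473). A second Sdhc probe, 191 bases away, pointed the other way at -0.11 (adjusted p = 0.131). Sdhd was near 0 (0.01, adjusted p = 0.871). Of 13 genes of the tricarboxylic acid cycle outside complex II, 0 passed by limma, 3 had an unadjusted p under 0.05, and 12 lay above 0 with a median of 0.04. The smallest p-values were for Sucla2 (0.10, adjusted p = 0.0563) and Suclg1 (0.10, adjusted p = 0.0766), subunits of succinyl-CoA synthetase, and for Ogdh (0.15, adjusted p = 0.0755), of the 2-oxoglutarate dehydrogenase complex. With quantile normalization 1 gene of this list passed, and 11 lay above 0.

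Complex III, the cytochrome bc1 complex, had 5 of 8 genes above 0. Uqcrc2, a core protein on the matrix side, rose. Its scaled log2 signal was 4.21, 4.20, 4.23 and 4.18 in fasted brains, against 4.10, 4.09, 4.13 and 4.09 in fed brains. Every fasted value exceeded every fed value although the gap between the groups was only 0.05. The difference was 0.10 ± 0.03 (SE, 4 arrays per group, 0.11 and 0.10 within the slides), with a limma adjusted p of 0.0436, or 0.0743 with the replicate block. The probe (NM_025899) is on chromosome 7, bases 127802599 to 127802658 (mm9). Uqcrfs1, the Rieske iron-sulfur protein, had 0.09 (adjusted p = 0.0841) and Uqcr10, a small subunit, 0.09 (adjusted p = 0.331). Further Uqcr10 probes gave 0.03 and -0.03 (adjusted p = 0.561 and 0.714).

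Complex IV, cytochrome c oxidase, had 12 of 16 genes below 0. Of these 16, Cox6b2 and Cox7a1 fell and none rose, while 8.7% of all genes were called lower and 8.49% higher. Cox6b2 is the form of subunit VIb known from testis. It had -1.39, -1.34, -1.38 and -1.37 in fasted brains, against -1.14, -1.23, -1.21 and -1.28 in fed brains, and the groups did not overlap. The difference was -0.16 ± 0.04 (SE, 4 arrays per group, -0.18 and -0.13 within the slides), with a limma adjusted p of 0.0263, or 0.0620 with the replicate block. The probe (NM_183405) is on chromosome 7, bases 4703488 to 4703547 (mm9).

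Cox7a1 is the form of subunit VIIa known from heart and skeletal muscle. It had 0.19, 0.12, 0.20 and 0.12 in fasted brains, against 0.30, 0.42, 0.35 and 0.26 in fed brains. The highest fasted value, 0.20, lay below the lowest fed value, 0.26. The difference was -0.17 ± 0.04 (SE, 4 arrays per group, -0.20 and -0.14 within the slides), with a limma adjusted p of 0.0332, or 0.0605 with the replicate block. The probe (NM_009944) covers chr7:30970337-30970948 (mm9, plus strand), and since 60 bases span 612 bases of the genome it crosses a splice junction. Of 3 heart markers, all kept, none passed and all lay below 0 with a median of -0.28, and their summed signal was 0.18 to 0.25 times the 75th percentile in fasted brains and 0.22 to 0.42 times in fed brains. Of 5 skeletal muscle markers, Ckm and Mylpf were not well above background on enough arrays to be kept, and the summed signal of the other 3 was 0.46 to 0.48 times the 75th percentile in fasted brains and 0.48 to 0.52 times in fed brains. None of these 3 passed either. Their part in the Cox7a1 result was not tested.
Cox7a1 probe: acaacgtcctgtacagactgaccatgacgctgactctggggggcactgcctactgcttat

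Cox7a2, the form of subunit VIIa found in most tissues, did not share this direction. It had 4.44, 4.42, 4.51 and 4.37 in fasted brains, against 4.32, 4.29, 4.36 and 4.34 in fed brains. Each fasted value was above each fed value, but the lowest fasted value (4.36525) barely exceeded the highest fed value (4.36473). Its own difference of 0.10 did not pass (limma adjusted p = 0.112). The change of Cox7a1 relative to Cox7a2 was -0.27, and the 4 fasted arrays lay wholly below the 4 fed arrays in this within-array difference. An exact two-sided permutation test over the 70 splits of the 8 arrays gave p = 0.0286, the smallest these splits can give. Because Cox7a1 lay wholly lower and Cox7a2 wholly higher in fasted brain, their difference had to separate. The test therefore adds nothing to the separations already given. Over the 9 isoform comparisons made the adjusted p was 0.129. After this adjustment a couple at the smallest p cannot pass 0.05 unless most of the 9 reach it. With fasted and fed swapped only within arrays of the same number, the exact p was 0.125, the smallest that the 16 arrangements can give, so that form of the test cannot pass 0.05.

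The promoters of this couple are shown because their differences had opposite signs. They are RefSeq sequences of build GRCm38.p6, from 250 bases before to 50 after the gene start, at chr7:30183921-30184220 (plus strand) for Cox7a1 and chr9:79759804-79760103 (minus strand) for Cox7a2, with CpG dinucleotides in capitals.
Cox7a1 promoter: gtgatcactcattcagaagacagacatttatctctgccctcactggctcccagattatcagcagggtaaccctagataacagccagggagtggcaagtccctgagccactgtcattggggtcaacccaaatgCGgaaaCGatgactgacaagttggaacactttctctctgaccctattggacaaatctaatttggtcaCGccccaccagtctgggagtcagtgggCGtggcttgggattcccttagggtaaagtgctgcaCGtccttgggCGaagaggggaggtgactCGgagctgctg
Cox7a2 promoter: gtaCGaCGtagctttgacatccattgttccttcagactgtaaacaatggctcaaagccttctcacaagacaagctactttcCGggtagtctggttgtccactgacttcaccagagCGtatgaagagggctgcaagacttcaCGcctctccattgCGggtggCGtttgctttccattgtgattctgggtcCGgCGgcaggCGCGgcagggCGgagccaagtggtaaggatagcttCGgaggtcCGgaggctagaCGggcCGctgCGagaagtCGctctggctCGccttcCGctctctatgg
The Cox7a1 window holds 7 CpG dinucleotides and the Cox7a2 window 20. All genes in the promoter table had a median of 7 per window, the 4 tissue or hypoxia isoforms with an entry a median of 8.5, and the 70 other members a median of 20.

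Ndufa4l2 gave the same kind of contrast with its general partner. Ndufa4 had 3.92, 3.97, 3.88 and 3.89 in fasted brains, against 3.83, 3.85, 3.81 and 3.86 in fed brains, without overlap, and a difference of 0.08 that did not pass (limma adjusted p = 0.149). The change of Ndufa4l2 relative to Ndufa4 was -0.25 (exact permutation p = 0.0286, adjusted p = 0.129, and p = 0.125 within arrays of the same number). As for Cox7a1, the opposite separations of both genes fixed this outcome in advance. For Cox6b2 relative to Cox6b1 the change was -0.13 (exact permutation p = 0.171). For the other couples of complex IV the change was -0.01 for Cox4i2 relative to Cox4i1, -0.03 for Cox6a2 relative to Cox6a1 and -0.07 for Cox8b relative to Cox8a (exact permutation p = 0.943, 0.657 and 0.543).

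**Figure D3:**
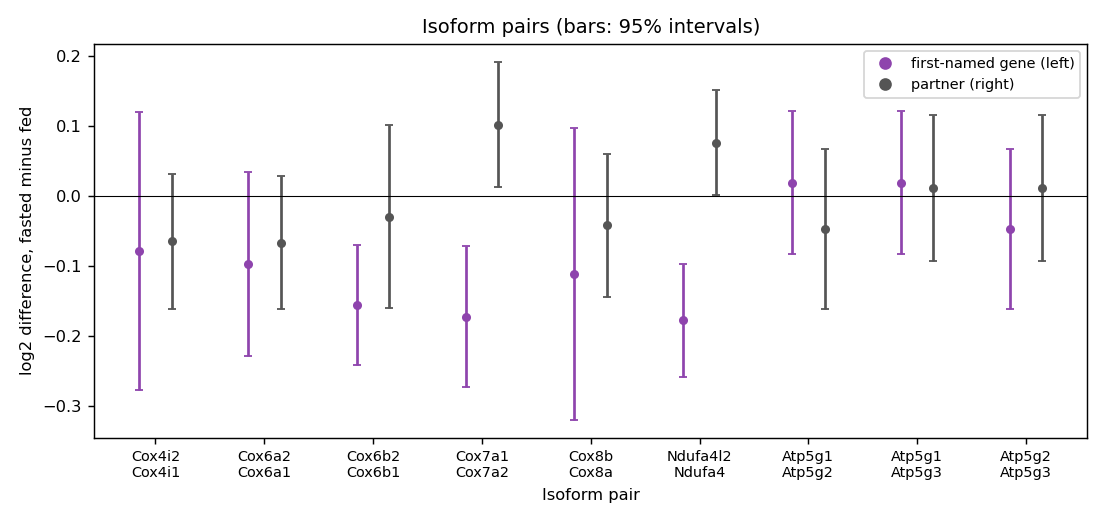
Difference between fasted and fed brain (log2, vertical axis) for both genes of 9 isoform couples, with 95% intervals from limma. The tissue or hypoxia form (purple, left) lies below its partner (grey, right) in all 6 couples of Cox and Ndufa4 genes. The relative change was -0.27 for Cox7a1 and -0.25 for Ndufa4l2, and the 3 couples among Atp5g1, Atp5g2 and Atp5g3 lie near 0. No relative change passed the exact permutation test after adjustment. These forms were grouped after their values were seen, so the count of 6 carries no test.

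The 7 tissue or hypoxia forms (Cox4i2, Cox6a2, Cox6b2, Cox7a1, Cox7b2, Cox8b and Ndufa4l2) were grouped after their values were seen. Neither their count nor any value of the group therefore carries a test. All 7 lay below 0, with a median of -0.16, and 3 of them passed. They were also all below 0 with median scaling, quantile normalization and normexp, and within each slide. These settings reuse the same arrays, whole or in part, and give no separate support. The median deviation of the 7 genes from their own means was -0.09, -0.08, -0.09 and -0.08 on the fasted arrays, against 0.05, 0.06, 0.10 and 0.04 on the fed arrays. Of 13780 genes whose mean level lay in the range of these 7, limma called 1364 lower and 1163 higher. Of the same 13780 genes 7903 were below 0, with a median of -0.03. Without the 6 forms that belong to complex IV, the median of that complex was -0.02, with 4 genes above 0 and 6 below. The 74 subunits other than the 7 forms had a median of 0.03, with 51 above 0, 3 higher and 1 lower.

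**Figure D4:**
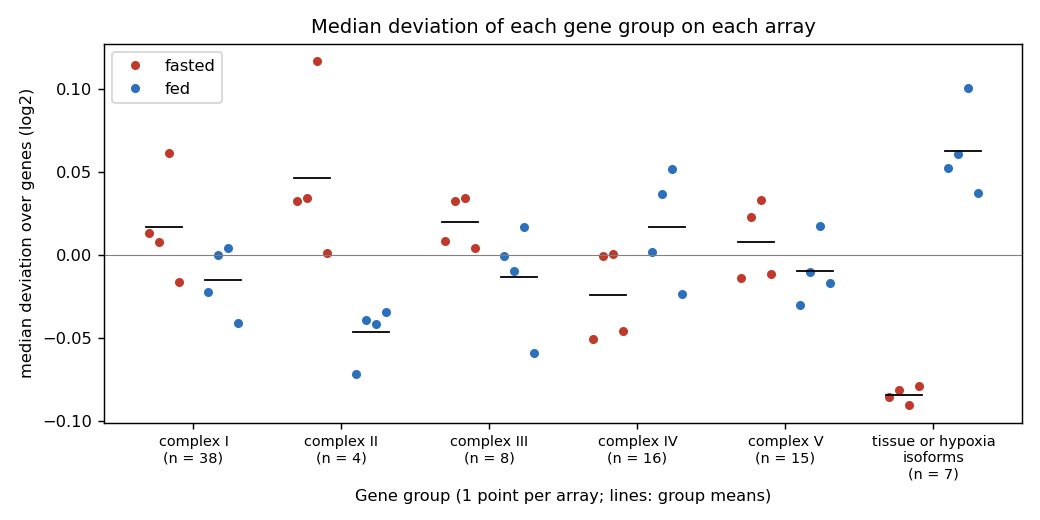
Median over the genes of a group of each gene's deviation from its mean on the 8 arrays (log2, vertical axis), 1 point per array, with fasted arrays in red left of fed arrays in blue and lines at the group means. The fasted and fed points are apart for complex II and for the 7 tissue or hypoxia forms and overlap for complexes I, III, IV and V. The 7 forms were grouped after their values were seen, so their gap carries no test.

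Complex V, ATP synthase, had 10 of 15 genes above 0, and its catalytic F1 head held a rise and a fall. Atp5a1, the alpha subunit, had 5.30, 5.34, 5.31 and 5.32 in fasted brains, against 5.21, 5.20, 5.21 and 5.23 in fed brains. The values within each group were close together and the groups did not overlap. The difference was 0.11 ± 0.03 (SE, 4 arrays per group, 0.12 and 0.09 within the slides), with a limma adjusted p of 0.0345, or 0.0789 with the replicate block. Atp5d, the delta subunit of the central stalk, had 3.46, 3.51, 3.53 and 3.45 in fasted brains, against 3.63, 3.60, 3.60 and 3.62 in fed brains. All its fasted values lay below its fed values. The difference was -0.12 ± 0.03 (SE, 4 arrays per group, -0.13 and -0.12 within the slides), with a limma adjusted p of 0.0333, or 0.0777 with the replicate block. The Atp5d probe (NM_025313) is on chromosome 10, bases 79608230 to 79608289 (mm9).

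The other F1 subunits did not pass. Atp5b, the catalytic beta subunit, had a difference of 0.02 (95% interval -0.09 to 0.13), Atp5c1, the gamma subunit, 0.04, and Atp5e, the epsilon subunit, -0.09 (limma adjusted p = 0.104). A second Atp5c1 probe gave -0.10 (adjusted p = 0.249). The 10 genes of the membrane part and the stalk had a median of 0.02, and none passed. Of these, Atp5f1 (now Atp5pb), the b subunit of the peripheral stalk, had 0.10 (adjusted p = 0.0915). A second Atp5f1 probe, 35 bases away, gave 0.02 (adjusted p = 0.857). Atp5g1, Atp5g2 and Atp5g3 encode the same mature c subunit of the rotor ring from 3 genes. Their differences were 0.02, -0.05 and 0.01, and in none of the 3 comparisons among them did the exact permutation p fall under 0.0857. These are values of the brightest probes. Second probes of Atp5g1 and Atp5g2 had the opposite signs, with -0.11 and 0.06 (limma adjusted p = 0.164 and 0.378).

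**Figure D5:**
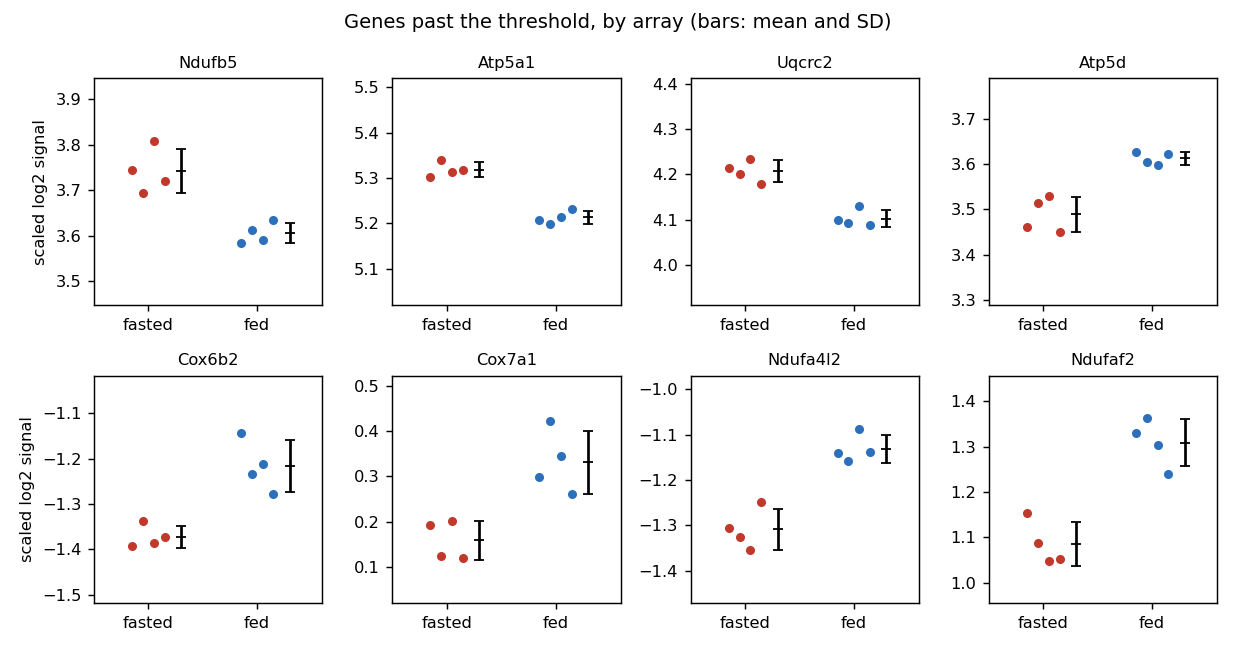
Scaled log2 signal (vertical axis, the same span of 0.5 in every panel) of the 8 genes past the threshold on each of the 4 fasted arrays (red) and 4 fed arrays (blue), with mean and SD beside the points. In every panel the fasted and fed points do not overlap.

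Among the assembly and associated factors, Ndufaf2, a chaperone of late complex I assembly, fell. It had 1.15, 1.09, 1.05 and 1.05 in fasted brains, against 1.33, 1.36, 1.30 and 1.24 in fed brains. The groups were well apart. The difference was -0.22 ± 0.04 (SE, 4 arrays per group, -0.23 and -0.22 within the slides), or 1.17-fold, with a limma adjusted p of 0.00998 (0.0237 with the replicate block). It passed in 17 of 17 alternative settings. The probe (NM_001127346) is on chromosome 13, bases 108843015 to 108843074 (mm9). Of its fellow complex I factors, Ndufaf1 had 0.13 (adjusted p = 0.0898), Ndufaf3 0.05 and Ndufaf4 -0.08 (adjusted p = 0.141). Atp5sl (now Dmac2), another complex I assembly factor despite its name, had 0.14 (adjusted p = 0.0656), and Cox7a2l, which joins complexes III and IV into supercomplexes, -0.03.

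Of 24 assembly factors with other names, 2 were higher (8.33%) and 3 lower (12.5%), shares near the 8.49% and 8.7% of all genes. Sdhaf1, which helps to mature the iron-sulfur subunit of complex II, rose by 0.18 (limma adjusted p = 0.0199), and Atpaf1, a chaperone of the F1 head, rose by 0.34 (adjusted p = 0.0438). Taco1, a translational activator of the mitochondrial COX1 message, had -0.37 (adjusted p = 0.0105). Bcs1l, which inserts the Rieske protein into complex III, had -0.19 (adjusted p = 0.0145), and Cox19, of the copper route to complex IV, -0.17 (adjusted p = 0.0287). The median over the 24 genes was 0.01.

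The 13 subunits encoded in mitochondrial DNA are made outside the nuclear programme, and 0 of them passed by limma, with 2 at an unadjusted p under 0.05. ND1, of complex I, had 0.10 (adjusted p = 0.102), CYTB, of complex III, -0.15 (adjusted p = 0.131), and COX2, of complex IV, -0.14 (adjusted p = 0.193). The array design places 6 of the 13 probes, that of COX2 among them, on chromosome 1 rather than on mitochondrial DNA, so their differences cannot be assigned to 1 locus. The median was -0.01, and 0.01 with median scaling. Of 7 further subunits and carriers outside the name rule, among them cytochrome c, 0 passed and 1 had an unadjusted p under 0.05.

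Regulators of mitochondrial biogenesis were measured beside their targets. Of 16, 3 rose (18.8%, against 8.49% of all genes) and 0 fell, while in some other settings 1 or 2 were lower, 2 with a filter on all 8 arrays and 1 with either block. Ppargc1a, which encodes the coactivator PGC-1alpha, had 2.49, 2.43, 2.38 and 2.39 in fasted brains, against 2.20, 2.07, 2.21 and 2.16 in fed brains. Its groups did not overlap, and its fasted level exceeded its fed level by 0.26 ± 0.04 (SE, 4 arrays per group, 0.32 and 0.20 within the slides) with a limma adjusted p of 0.00776. Pprc1, a relative of that coactivator, rose by 0.28 (adjusted p = 0.0193), and Esrrb, an oestrogen-related receptor, by 0.29 (adjusted p = 0.0152). Gabpa, a subunit of nuclear respiratory factor 2, had -0.27 (adjusted p = 0.0608, or 0.0455 with the replicate block), and Polg, the mitochondrial DNA polymerase, -0.14 (adjusted p = 0.0506).

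A motif of the nuclear respiratory factor NRF1 was looked for in the promoters of the members. NRF1 is known to bind genes of the respiratory chain. The letters GCGC, then any base, then TGCGC were searched on both strands and found in a 300-base RefSeq window (GRCm38.p6) of 18 of the 74 members with an entry (24.3%), against 5.19% of 27025 genes. By complex they were found in 7 of 33 for complex I, 2 of 3 for II, 1 of 5 for III, 1 of 12 for IV and 6 of 14 for V. The first window of a member held a median of 19.5 CpG dinucleotides and 57.8% G and C bases. Over all genes the medians were 7 and 52.7%, and the motif shares were not adjusted for base content. A window of 30 bases around the match is shown for 1 gene of each complex to let the motif be seen, with the match in capitals. In each complex this is the gene with the smallest limma p among members with a match clear of the window's ends. The windows lie at chr4:123718265-123718294 (minus strand), chr13:74350319-74350348 (minus), chr9:108936643-108936672 (plus), chr5:115349101-115349130 (minus) and chr2:10080430-10080459 (minus).
Ndufs5: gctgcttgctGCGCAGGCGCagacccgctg
Sdha: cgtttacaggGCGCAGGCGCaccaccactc
Uqcrc1: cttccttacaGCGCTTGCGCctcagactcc
Cox6a1: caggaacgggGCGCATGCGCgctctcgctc
Atp5c1: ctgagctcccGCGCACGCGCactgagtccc
The differences of these 5 genes were 0.12, 0.10, 0.06, -0.07 and 0.04, and none passed. As the genes were chosen by p, these values do not stand for all members with the motif. The 18 members with the motif had a median difference of 0.04 and the 56 without it 0.01. A match is a description of the letters, not a site or a cause.

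Other motifs were rarer, and their shares were likewise not adjusted for base content. CCGGAAGT, of nuclear respiratory factor 2, was found in 5 members (6.76%), against 4.31% of all genes. TNAAGGTCA, of the oestrogen-related receptors, was found in 3 (4.05%), against 1.43%, and the motif of YY1, AANATGG followed at once by CGGC, in 5 (6.76%), against 1.17%. At least 1 of the 4 motifs was found in 26 of the 74 members (35.1%), against 11.3% of all genes. These were 26 of the 70 members other than the tissue or hypoxia forms and 0 of the 4 such forms with an entry. With only 4 such forms, no contrast between them and the other members can be drawn. Of the 74 members 5 held more than 1 motif, and 0 had matches of different motifs that overlapped. A gene with several windows in the table, as 6 members had, counted where any of them held the letters.

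Markers of other cell types also differed in part between the same arrays. Among all genes 8.49% were higher and 8.7% lower. Of 6 microglial markers 4 were lower and none higher in fasted brain, with summed signals of 42.6 to 47.7 times the 75th percentile in fasted brains and 44.7 to 49.1 times in fed brains. Of 6 oligodendrocyte markers 3 were lower and none higher, while 1 lay above 0 with a difference of 0.30 that did not pass. The oligodendrocyte sums were 85.7 to 94.6 in fasted brains and 95.7 to 103 in fed brains. Of 6 astrocyte markers 1 was higher and 1 lower, with sums of 30.5 to 31.1 in fasted brains and 27.3 to 29.2 in fed brains. Of 5 endothelial markers 1 was higher and 1 lower, with sums of 8.26 to 9.11 in fasted brains and 8.62 to 9.08 in fed brains. Of 8 neuronal markers none passed, with a median difference of 0.05 and sums of 193 to 202 in fasted brains and 186 to 194 in fed brains. Their part in the differences of the chain and synthase genes was not tested.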

How the data were processed

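Total RNA of 4 fasted and 4 fed mouse brain samples was measured on single-colour Agilent arrays. The deposited scanner files hold each spot's intensity, made with Feature Extraction 11.0.1.1 per the file headers, while the submitters' processing notes name version 10.10.1.1. The authors' deposited series table holds a linear ratio, which equals the signal over the array's 75th percentile divided by a constant per probe (spread 0.000179 on the log2 scale); the baseline behind that constant stays unknown. Its column medians were 0.970, 0.993, 0.973 and 0.987 for fasted and 0.987, 1.02, 0.991 and 1.02 for fed arrays, and it served as an alternative only.

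Processed signals were taken to log2 minus the 75th percentile of each array (1651 to 1944 intensity units). The control spots, and on each array 128 to 217 spots flagged as outliers, were dropped before averaging the spots of each probe. A probe needed a share of 0.5 of its spots well above background to count as such on an array, and 4 such arrays to be kept. Sample titles gave the groups and replicate numbers. The main test was a two-sided limma fit (limma 3.58.1, R 4.3.3, functions lmFit and eBayes) with Benjamini-Hochberg adjustment over 26066 kept probes. The procedure was tested on simulated data. Isoform couples were compared with exact permutation tests, and with swaps within replicate numbers as an alternative chosen after the data were seen, as was the other assignment of Ndufa4 and Ndufa4l2. Of the member probes, 120 matched RefSeq (GRCm38.p6), and 4 members have newer symbols. Probe positions are the array design's own (mm9). The members and gene lists were chosen with earlier results of these data known.

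Named were the members past the threshold, the 3 with the smallest p of each complex, genes with any probe past it, both genes of each isoform couple, members without a kept probe, and up to 4 genes of each other list by p. Other members given beside them for their role were named outside this rule. A result on 1 member is not reported here.

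After subtracting group means, the fasted and the fed array of the same number correlated at 0.18 to 0.29. Same-numbered arrays also share a slide and neighbouring positions. Arrays of the same slide but of unlike number correlated at 0.05 to 0.27, and arrays of unlike slides at -0.39 to -0.10. A pairing by number therefore cannot be told apart from the slide. The replicate number was used as a block in alternatives only, and the main test had no block. Between slides 220 probes passed. The alternatives were normexp background correction with an offset of 50, median and quantile scaling, no filter or a filter on all 8 arrays, slide or replicate as a block, each slide alone, leaving out each array, the deposited table and the mean of a gene's probes.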

Additional observations from a re-analysis of the deposited data

Results flagged for a closer look

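In 4 groups of 4 arrays a single array stood apart from the others of its group, by a gap beyond Dixon's 95% critical value. The 58 groups of the 29 members named by rule were looked at, and chance flags about 1 in 20 groups. Cox4i1, the general form of complex IV subunit IV, was 6.001 in fed replicate 4, against a mean of 6.15 in the other fed arrays. Atp5g1, a gene of the c subunit of ATP synthase, was 4.81 in the same array, against 4.93. Cox8a was 6.44 in fasted replicate 1, against 6.57 in the other fasted arrays. Atp5f1 was 3.16 in fed replicate 2, against 3.12. None of these 4 genes passed the threshold.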

How the results depend on the processing

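Over 17 alternative settings the 8 called members kept their direction in each, but most calls were lost in some. The main comparison called 3 members higher and 5 lower. The counts were 1 and 2 with normexp, 0 and 1 with median scaling, 0 and 2 without a filter on dim probes, and 1 and 2 with the replicate block. With the slide as a block 5 were higher. Within slide 1 and within slide 2, with 2 arrays per group, limma called 0 members and 0 of all genes, while 7 and 2 members and 4412 and 3022 of all genes had an unadjusted p under 0.05. Leaving out 1 array gave 0 to 1 member higher and 2 to 5 lower, and 2159 to 2942 of all genes, against 3437 in the main comparison and 1852 without a filter. Only Ndufa4l2 and Ndufaf2 were called in each of these 8 runs. In each setting with calls the share of members called (1.12% to 11.2%) was below that of all genes (9.26% to 20.4%). The median of complex III, 0.06 in the main comparison, ranged from 0.0312 to 0.0697 with 1 array left out, the lowest without fed replicate 4, that of complex V, 0.0176, from -0.00124 (without fasted replicate 2) to 0.0297, that of complex I, 0.0321, from 0.0165 (without fed replicate 4) to 0.0374, and that of all members, 0.0193, from 0.0106 (without fasted replicate 3) to 0.0325. Complex II ranged from 0.0801 to 0.110 and complex IV from -0.0702 to -0.0454. With the mean of a gene's probes the median was 0.0511 for complex II, 0.0366 for complex III and 0.00405 for complex V. Sdhc passed with the slide as a block and without fed replicate 4, and Cox6a2 without fasted replicate 3. Of 551 values of single named genes, 84 lost the call, 3 gained it and none reversed. Only the values of the 8 called genes could lose a call, so 551 is not the base of the 84 losses. The single-slide fits, which called 0 of all genes, are among these settings. Of the isoform couples 0 passed after adjustment in either form of the exact test, the replicate block included. The cause of these changes was not tested. The number of arrays limits the precision.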

Other observations

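Of 31 member genes with several kept probes, 14 had probes of opposite sign, and in none did probes pass in both directions. The array design places 7 member probes on another chromosome than RefSeq does for the gene, among them the brightest probes of Atp5l (X in the design, 9 in RefSeq) and Atp5j2 (9 in the design, 5 in RefSeq). None of the 7 passed, and differences of such probes cannot be assigned to 1 locus.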
